A study of Danio rerio with 15 samples.

Results

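The genes described here are 7 that were grouped as genes of Müller glia identity and of their upkeep of the retina: rlbp1a, glula, glulb, gja1b, aqp1a.1, efhd1 and s100b. They were taken by symbol, current or former, from the 2331 genes named in the authors' deposited table, 4 by their present symbol and 3 (aqp1a.1, efhd1 and gja1b) through an older or clone name. Each had 1 probe set named there, so 7 of the 15502 probe sets tested are described. Probe sets outside that table carried no symbol here, so any further probe set of these genes was not seen. That table holds 3164 probe sets, and all of them changed at least 2-fold at some time on these same samples. A Müller glia gene that changed less could therefore not be named, and the number of changed genes among these 7 is not independent evidence of change.

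Müller glia were sorted by flow cytometry for GFP from dissociated retinas of 5- to 6-month-old Tg(gfap:GFP)mi2002 zebrafish, a line in which the gfap promoter drives GFP. All groups carry this transgene. Unlesioned fish that had received no light treatment gave the 0 hpl group, and fish taken 8, 16, 24 and 36 hours post-lesion (hpl) after a light lesion gave the other 4. Each group held 3 biological replicates with 1 array each, 15 in all, and whether a replicate pooled several fish is not given in the sources used here.

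Müller glia span the retina and keep its neurons supplied and its fluid in balance. They take up glutamate released by neurons and turn it into glutamine with glutamine synthetase. They bind retinaldehyde and retinol in the recycling of visual pigment, move water and ions, and are joined to each other by gap junctions. In zebrafish they also respond to the death of photoreceptors by dividing and giving rise to new neurons.

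Values are log2 RMA values, a normalised brightness for which no detection call exists. Array medians lay between 4.41 and 4.67, and replicate arrays correlated at 0.973 to 0.991. The median change of all probe sets against 0 hpl was -0.10 at 8 hpl, -0.14 at 16 hpl, -0.11 at 24 hpl and -0.14 at 36 hpl. When the arrays were scaled on the 18 spiked hybridisation control probe sets instead, these medians became 0.19, 0.25, 0.205 and 0.38. The array's EGFP control probe set read 2.90 to 3.68 over the 15 arrays, below the median of every array, so it gave no reading of the reporter used for the sort. Levels are not compared between genes, because the brightness of different probe sets has no common scale.

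Of the 7 genes 6 fell and 1 rose at all 4 times after the lesion. The retinaldehyde-binding protein gene rlbp1a, the glutamine synthetase gene glula, the connexin gene gja1b, the water channel gene aqp1a.1, and the calcium-binding protein genes efhd1 and s100b fell, and the glutamine synthetase gene glulb rose. All 28 changes had a limma adjusted p below 0.05, and in all 28 the lesioned arrays lay outside the range of the 0 hpl arrays. At 8 hpl 14.5% of all probe sets fell and 12% rose by the same test. The shares that fell were 21.9% at 16 hpl, 14.2% at 24 hpl and 26.6% at 36 hpl, and those that rose were 18.4%, 16.3% and 19.9%. Within the 3164 probe sets of the authors' deposited table, from which the genes were named, the shares were higher: 26.1%, 35.2%, 32.3% and 37.2% fell, and 37.3%, 49.5%, 49.4% and 54.0% rose, at 8, 16, 24 and 36 hpl. All arrays below the controls were seen for 23.2%, 31.9%, 23.0% and 29.9% of probe sets at the 4 times, and all arrays above them for 15.3%, 22.2%, 20.8% and 22.6%. The median change of the 7 genes was -0.54, -0.78, -1.29 and -1.19. All 4 comparisons share the 3 arrays of 0 hpl. The moderated F test over the whole course gave adjusted p-values between 7.89e-07 for s100b and 0.000333 for glula. In sorted cells measured in bulk, less RNA of a gene per Müller glial cell and fewer such cells in the sort cannot be told apart.

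**Figure D1:**
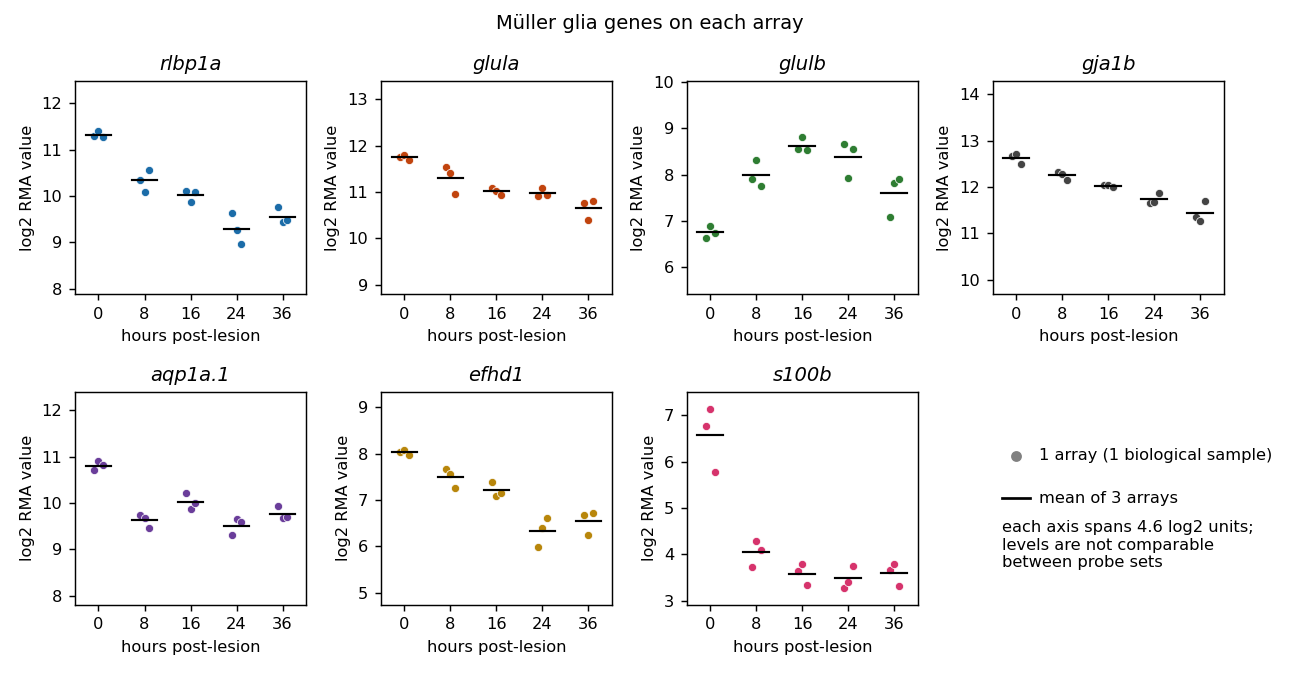
Log2 RMA value (vertical axis) of each of the 7 genes on each array against hours post-lesion (horizontal axis, times evenly spaced). Points are the 3 arrays of a time and bars are their means. All lesioned arrays of glulb lie above its 0 hpl arrays, and those of the other 6 genes lie below theirs.

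The calls at 8 hpl were of unequal firmness. The falls of gja1b (adjusted p = 0.0494), glula (adjusted p = 0.0438) and efhd1 (adjusted p = 0.0352) stood close to the threshold. The count of falls at 8 hpl dropped to 3 without 0 hpl replicate 1, 2 or 3 or 8 hpl replicate 2 or 3, and rlbp1a, aqp1a.1 and s100b were the 3 that passed under all 24 alternative fits. Without 1 of those arrays the falls over all 15502 probe sets at 8 hpl also went down, from 2246 to between 1429 and 2142. Between neighbouring lesioned times few of the 7 genes changed. Between 16 and 8 hpl limma called 0 of 7, where 3.12% of all probe sets fell and 5.48% rose. Between 24 and 16 hpl it called 1 fall, that of efhd1, where 0.271% fell and 0.29% rose. Between 36 and 24 hpl it called 0 of 7, where 2.03% fell and 3.11% rose. The unadjusted 95% interval left out 0 for glulb and aqp1a.1 in the first of these steps, for rlbp1a, aqp1a.1, gja1b and efhd1 in the middle one, and for glulb and gja1b in the last. How many of all probe sets had such an interval was not counted, and the shares above are for the adjusted p. These intervals are therefore not read as more change than on the whole array.

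The gene rlbp1a encodes a protein that binds 11-cis-retinaldehyde and retinol for the visual cycle, known in vertebrates from Müller glia and from pigment epithelium. Zebrafish carry a pair of rlbp1 copies, of which one is known from pigment epithelium and the other from Müller glia. Which copy or copies this probe set reads was not checked here, so its values are not assigned to Müller glia alone. Its 3 arrays read 11.31, 11.40 and 11.28 at 0 hpl, 10.35, 10.10 and 10.57 at 8 hpl, and 10.11, 9.87 and 10.10 at 16 hpl. They read 9.63, 9.27 and 8.96 at 24 hpl and 9.75, 9.44 and 9.48 at 36 hpl. The arrays of each later time lay below all 3 controls, and those of 24 hpl below all of 16 hpl, as for 8.96% of all probe sets. The log2 change was -0.99 ± 0.17 SE at 8 hpl (adjusted p = 0.000649) and -2.04 ± 0.17 SE at 24 hpl (adjusted p = 2.49e-07). At 24 hpl this left 24.3% of the 0 hpl level (95% interval 18.9 to 31.2%), and at 36 hpl 29.3% (22.8 to 37.7%). The step between 36 and 24 hpl was 0.27 (95% interval -0.09 to 0.63) and did not pass. The pigment epithelium gene rpe65a, the retinoid isomerase, was the only named member of its marker list. Its mean was 6.57 at 0 hpl, 5.99 at 8 hpl, 5.19 at 16 hpl, 5.06 at 24 hpl and 4.92 at 36 hpl, and among these only the 36 hpl fall passed (log2 change -1.65, adjusted p = 0.0283). Its part in the fall of rlbp1a was not tested.

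Glutamine synthetase joins glutamate and ammonia to glutamine, and in the mammalian retina it is a defining enzyme of Müller glia. Zebrafish have several copies of the gene, of which glula and glulb are named here. For glula the arrays read 11.75, 11.80 and 11.70 at 0 hpl, 11.53, 11.42 and 10.96 at 8 hpl, 11.09, 11.02 and 10.94 at 16 hpl, 10.91, 11.09 and 10.94 at 24 hpl, and 10.77, 10.39 and 10.80 at 36 hpl. It stood at its lowest at 36 hpl, with 46.7% of the 0 hpl level (95% interval 37.2 to 58.6%) and a log2 change of -1.10 ± 0.15 SE (adjusted p = 3.83e-05). At 16 and 24 hpl its changes were close to each other, -0.74 ± 0.15 SE and -0.77 ± 0.15 SE, and the step between these times was -0.04 (95% interval -0.37 to 0.29).

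The arrays of glulb read 6.64, 6.90 and 6.74 at 0 hpl, 7.92, 8.31 and 7.76 at 8 hpl, 8.55, 8.81 and 8.53 at 16 hpl, 8.67, 7.94 and 8.56 at 24 hpl, and 7.08, 7.82 and 7.90 at 36 hpl. All 3 arrays of 16 hpl were above all of 8 hpl, as was seen for 13.6% of all probe sets. They were also above all of 36 hpl, a separation whose share was not counted. The rise was 2.35-fold at 8 hpl (log2 change 1.24 ± 0.23 SE, adjusted p = 0.00111) and 3.65-fold at 16 hpl (1.87 ± 0.23 SE, adjusted p = 1.20e-05). It was 3.09-fold at 24 hpl and 1.79-fold at 36 hpl (0.84 ± 0.23 SE, adjusted p = 0.00706). Between 36 and 16 hpl glulb fell (log2 difference -1.03 ± 0.23 SE, adjusted p = 0.00871), in a comparison in which 3.66% of all probe sets fell. Without the 3 arrays of lowest weight the 36 hpl rise did not pass (0.73, adjusted p = 0.0583).

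The courses of the glutamine synthetase genes were also set against each other within each array. This difference does not move when all log2 values of an array are shifted alike, but it can move under quantile normalisation. With quantile normalisation applied again, glulb stood at 1.63 and glula at -0.87 at 16 hpl against 0 hpl, where the deposited values gave 1.87 and -0.74. Relative to its mean at 0 hpl, glulb minus glula stood at 1.68 at 8 hpl, 2.61 at 16 hpl, 2.4 at 24 hpl and 1.94 at 36 hpl on the log2 scale. The single arrays ranged over -0.12 to 0.09 at 0 hpl, 1.38 to 1.88 at 8 hpl, 2.45 to 2.78 at 16 hpl, 1.84 to 2.75 at 24 hpl and 1.31 to 2.42 at 36 hpl. At every lesioned time the 3 arrays lay above all controls, with a two-sided exact permutation p of 0.1 each, the smallest that 3 against 3 arrays can give. From 16 hpl on, no step between neighbouring times separated the arrays (exact permutation p of 0.8 for 24 against 16 hpl and 0.4 for 36 against 24 hpl), and the 16 hpl arrays lay above those of 8 hpl (exact permutation p = 0.1). The pair was chosen with this opposite course already known, so these values describe it.

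**Figure D2:**
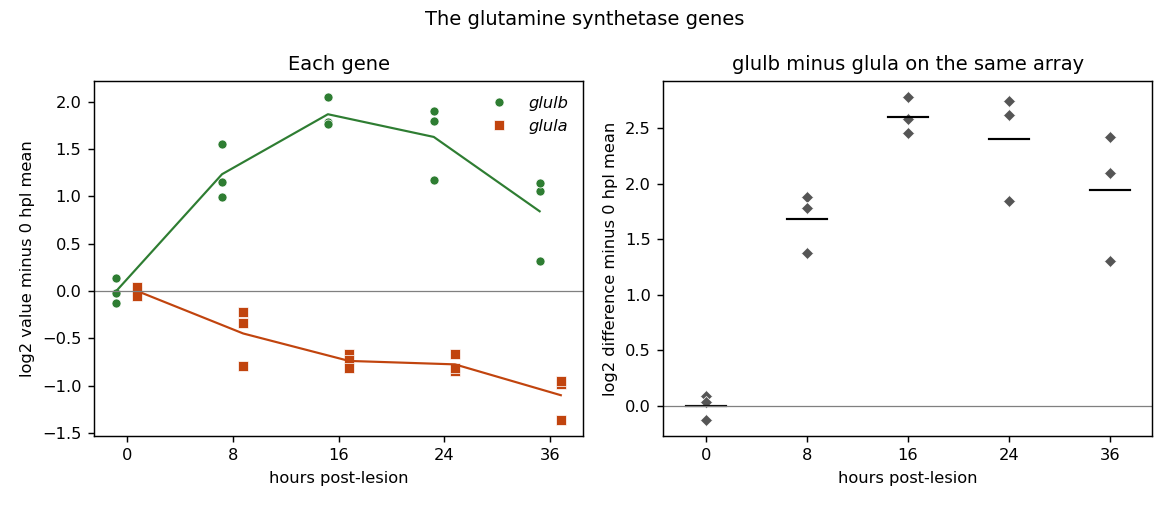
Left, log2 value of glulb and glula on each array minus the gene's 0 hpl mean, with lines through the means. Right, the difference glulb minus glula on each array minus its 0 hpl mean, with bars at the means; both against hours post-lesion, evenly spaced. The difference is 2.61 at 16 hpl and 1.94 at 36 hpl, and no lesioned array overlaps the 0 hpl arrays.

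The gene gja1b encodes connexin 43, a gap junction channel protein. It is also on the list of oligodendrocyte and astrocyte genes used below, so its values are not assigned to Müller glia alone. Its arrays read 12.67, 12.72 and 12.51 at 0 hpl, 12.33, 12.29 and 12.15 at 8 hpl, 12.05, 12.05 and 12 at 16 hpl, 11.66, 11.67 and 11.88 at 24 hpl, and 11.36, 11.26 and 11.70 at 36 hpl. The arrays of 8, 16 and 24 hpl each lay below all of the time before, which 10% of all probe sets did for 16 against 8 hpl and 8.96% for 24 against 16 hpl. The log2 change was -0.38 ± 0.13 SE at 8 hpl, -0.60 ± 0.13 SE at 16 hpl (adjusted p = 0.00239), -0.89 ± 0.13 SE at 24 hpl (adjusted p = 8.30e-05) and -1.19 ± 0.13 SE at 36 hpl (adjusted p = 4.30e-06). No single step past 8 hpl was called, but 36 hpl was below 16 hpl (-0.59 ± 0.13 SE, adjusted p = 0.00995). At 36 hpl 43.8% of the 0 hpl level remained (95% interval 36.0 to 53.4%).

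The gene aqp1a.1 encodes an aquaporin, a channel through which water crosses the cell membrane. It read 10.70, 10.90 and 10.82 at 0 hpl, 9.74, 9.68 and 9.46 at 8 hpl, 10.22, 9.87 and 9.99 at 16 hpl, 9.31, 9.65 and 9.58 at 24 hpl, and 9.93, 9.67 and 9.69 at 36 hpl. The means went down, up, down and up, and at each of these steps the 3 arrays of one time lay wholly to one side of those of the time before. Neither the step at 16 hpl (0.40 ± 0.14 SE, adjusted p = 0.108), nor that at 24 hpl (-0.52 ± 0.14 SE, adjusted p = 0.163), nor that at 36 hpl (0.25 ± 0.14 SE, adjusted p = 0.352) passed the test. Such separation, in the direction of each step, was seen for 13.6% of all probe sets above at 16 hpl, 8.96% below at 24 hpl and 11.1% above at 36 hpl; separation the other way was seen for 10.4% at 24 hpl and 14.5% at 36 hpl. Against 0 hpl the log2 change was -1.18 ± 0.14 SE at 8 hpl (adjusted p = 3.00e-05) and -1.29 ± 0.14 SE at 24 hpl (adjusted p = 4.11e-06), so that 44.3% (95% interval 35.9 to 54.7%) and 40.8% (33.1 to 50.4%) of the 0 hpl level remained.

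The gene efhd1 encodes an EF-hand protein, known in mammals as a calcium sensor at mitochondria. Its arrays read 8.04, 8.08 and 7.98 at 0 hpl, 7.66, 7.57 and 7.25 at 8 hpl, 7.39, 7.09 and 7.15 at 16 hpl, 5.99, 6.39 and 6.61 at 24 hpl, and 6.68, 6.25 and 6.72 at 36 hpl. The largest step was between 16 and 24 hpl, where the arrays separated fully, as for 8.96% of all probe sets in that direction. That step of -0.88 ± 0.18 SE (adjusted p = 0.0359) was the only one between neighbouring lesioned times that passed for any of the 7 genes. It did not pass without 0 hpl replicate 2, 8 hpl replicate 2, any of the 3 arrays of 16 hpl, or 24 hpl replicate 1 or 2, with an adjusted p up to 0.207. Against 0 hpl efhd1 stood at -1.70 ± 0.18 SE at 24 hpl (adjusted p = 1.94e-06), which is 30.7% of the 0 hpl level (95% interval 23.7 to 39.8%), and at 35.8% (27.6 to 46.4%) at 36 hpl.

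The gene s100b encodes a small calcium-binding protein of the S100 family that marks glia in mammals. Its arrays read 6.78, 7.14 and 5.78 at 0 hpl, 3.74, 4.30 and 4.09 at 8 hpl, 3.63, 3.78 and 3.33 at 16 hpl, 3.28, 3.41 and 3.75 at 24 hpl, and 3.66, 3.79 and 3.32 at 36 hpl. The controls had an SD of 0.71 (n = 3), the widest spread of any gene and time here, and all lay above the lesioned arrays. The log2 change was -2.53 ± 0.27 SE at 8 hpl (adjusted p = 9.58e-06) and -3.09 ± 0.27 SE at 24 hpl (adjusted p = 4.29e-07). On all 12 lesioned arrays s100b lay below the median of its array, so these levels are not shown to stand above background and no fold is given. Its log2 changes are differences in brightness, and the size of the fall is not measured by them. Leaving out a control array moved the 24 hpl change between -3.48 and -2.80. The list of 18 oligodendrocyte and astrocyte genes also holds gja1b, and naming was tied to a 2-fold change. Apart from gja1b, 3 genes of the list were named. They were plp1b and cldnk, of myelin, and sox10, a transcription factor of the oligodendrocyte lineage. At 8 hpl 2 of these 3 fell, and at 16, 24 and 36 hpl all 3 did, with a mean log2 level over the arrays of 5.66 to 6.12 at 8 hpl, against 6.40 to 7.14 at 0 hpl. Their part in the fall of s100b was not tested.

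**Figure D3:**
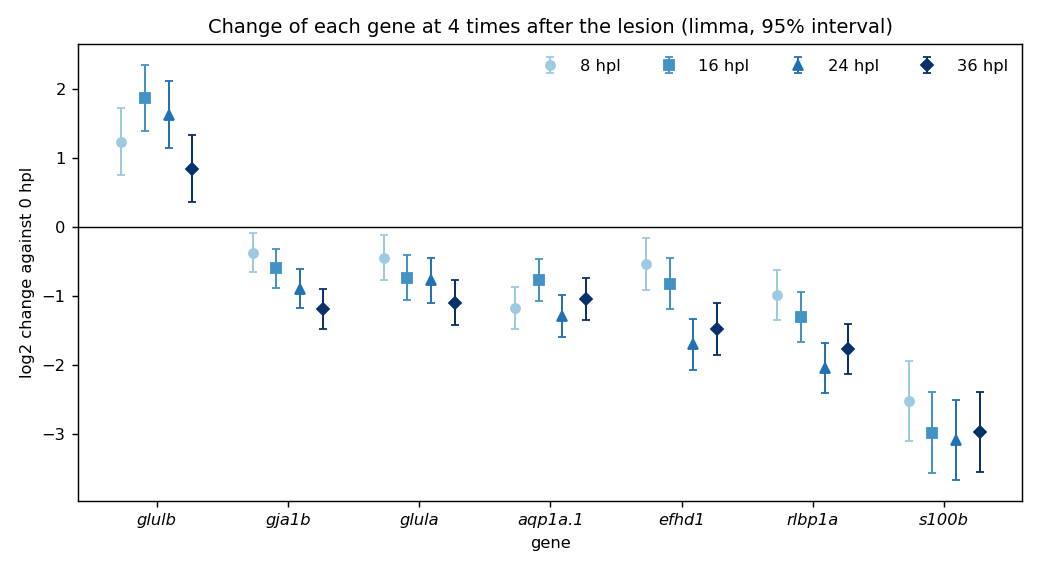
Log2 change against 0 hpl (vertical axis) of the 7 genes at 8, 16, 24 and 36 hpl, with 95% intervals from limma (3 arrays per time). The values lie between 1.87 for glulb at 16 hpl and -3.09 for s100b at 24 hpl.

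The lowest mean log2 change was -2.04 for rlbp1a, -1.70 for efhd1, -1.29 for aqp1a.1, -1.19 for gja1b and -1.10 for glula. For s100b it was -3.09, a value read against lesioned arrays not shown above background, so s100b is left out of the order of depth and timing. The 95% intervals of rlbp1a (-2.41 to -1.68) and efhd1 (-2.08 to -1.33) at 24 hpl overlapped. Those of aqp1a.1 at 24 hpl (-1.60 to -0.99) and of gja1b (-1.48 to -0.91) and glula (-1.43 to -0.77) at 36 hpl overlapped too, so no order is given among these 3. The interval of efhd1 also overlapped each of these 3, so efhd1 is not ranked as deeper than they are. At 8 hpl aqp1a.1 stood at 91.0% of its lowest log2 change. The share was 48.5% for rlbp1a, 40.7% for glula, 31.6% for gja1b and 31.5% for efhd1. These shares depend on the scale of the arrays: with scaling on the hybridisation controls gja1b stood at -0.08 at 8 hpl and -0.68 at 36 hpl, and efhd1 at -0.24 at 8 hpl and -1.39 at 24 hpl. The lowest mean came at 24 hpl for rlbp1a, aqp1a.1 and efhd1 and at 36 hpl for glula and gja1b. Differences in timing between genes were not tested.

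Placed in order of level, the times of each gene fell into few distinguishable steps. For rlbp1a the order was 0, 8, 16, 36 and 24 hpl, and only 0 and 8 hpl differed as neighbours, although 24 hpl was below 8 hpl (-1.05 ± 0.17 SE, adjusted p = 0.000641), as were 6.68% of all probe sets. The order was 0, 8, 16, 24 and 36 hpl for glula and gja1b, again with a difference only between 0 and 8 hpl. That difference was not called under 17 of 24 alternative fits for glula and 19 of 24 for gja1b. Against 8 hpl, 36 hpl was lower for glula (-0.65, adjusted p = 0.00651) and gja1b (-0.81, adjusted p = 0.000374), as were 8.84% of all probe sets. For efhd1 the order was 0, 8, 16, 36 and 24 hpl, with differences between 0 and 8 hpl and between 16 and 36 hpl (0.66, adjusted p = 0.0268). The difference of efhd1 between 0 and 8 hpl was not called under 10 of 24 alternative fits. The order for aqp1a.1 was 0, 16, 36, 8 and 24 hpl and for s100b 0, 8, 36, 16 and 24 hpl, with only 0 hpl set apart from its neighbour. The lesioned levels of s100b are not shown above background, so no order is read among them. For glulb the order was 16, 24, 8, 36 and 0 hpl, and only 36 and 0 hpl differed as neighbours.

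In the authors' deposited table fewer changes had a p-value under 0.05. Of the 28 changes, 2 in the authors' deposited table had a p-value under 0.05, the fall of rlbp1a at 36 hpl (0.0438) and the rise of glulb at 16 hpl (0.0379). For s100b the authors' deposited table gave its smallest p-value, 0.0941, at 24 hpl. The fold changes in the authors' deposited table equalled the differences of group means used here to within 6.93e-10 on the log2 scale, so the test differs and the changes do not. What size of change the authors' test asked for is not stated. Its p-values were 0.998 for the 1.99-fold fall of rlbp1a at 8 hpl and 0.999 for the 2.06-fold fall of aqp1a.1 at 36 hpl. Its 2 passes and the 28 of limma are therefore not a comparison of like tests.

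The genes whose course was nearest were sought among the other 1829 named genes by the root mean square (RMS) difference of the 4 log2 changes. Nearest to glulb were impdh2, which encodes an enzyme of guanine nucleotide synthesis (RMS 0.12), heatr3 (0.13) and the phosphatase gene pgp (0.135). Nearest to rlbp1a were mid1ip1l (0.11), the protein kinase inhibitor pkib (0.18) and nsg2 (0.19). For efhd1 they were the selenium carrier selenop (0.10), the matrix protein sparc (0.15) and the hypoxia-inducible factor epas1b (0.16), whose log2 changes at 24 hpl were -1.58, -1.91 and -1.66. Nearest to gja1b were the tropomyosin gene tpm1 (0.07), rtn1b (0.07) and the phosphatase gene dusp2 (0.11), none of whose changes at 8 hpl passed the test and of which dusp2 passed at no time. The nearest to aqp1a.1 were the phosphatase gene ptpn11b (0.13), the phosphate transporter slc20a1a (0.14) and ddt (0.14), whose log2 changes at 16 hpl were -0.68, -1 and -1.01. For glula they were npdc1a (0.06), the carbonic anhydrase ca7 (0.08) and the deiodinase dio1 (0.08), and of their changes at 8 hpl none passed the test. For s100b they were farther off, tapbp.1 (0.26), the collagen col9a2 (0.39) and the lysyl oxidase homologue loxl2b (0.48). Among the 7 genes themselves glula and gja1b were closest (RMS 0.11) and glulb and s100b farthest apart (4.32). All distances of s100b rest on lesioned levels not shown above background, so their size is not measured.

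**Figure D4:**
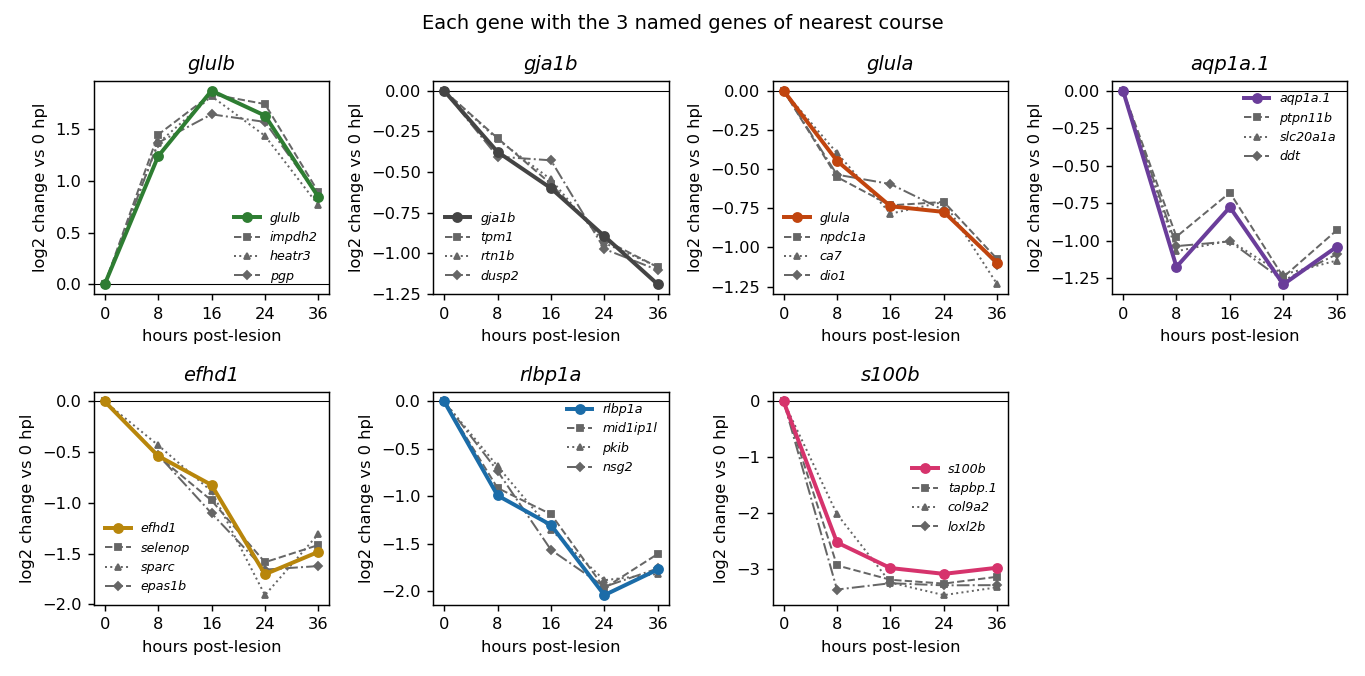
Log2 change against 0 hpl (vertical axis) against hours post-lesion (horizontal axis, evenly spaced) for each of the 7 genes (coloured) and the 3 named genes nearest in course (grey). RMS differences lie between 0.06 for npdc1a with glula and 0.48 for loxl2b with s100b.

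Other genes of the same functions were counted from lists. The genes of every list used here were named from the 3164 probe sets that changed at least 2-fold. Their counts are therefore not independent evidence of change. Of those probe sets 26.1% fell and 37.3% rose at 8 hpl, 32.3% and 49.4% at 24 hpl, and 37.2% and 54.0% at 36 hpl. In glutamate and glutamine handling 9 of 32 listed genes were named. At 8 hpl 6 of them rose and 1 fell, and at 24 hpl 3 rose and 4 fell. The rises at 8 hpl included gad1b (1.18 ± 0.28 SE) and gad2 (1.35 ± 0.42 SE), which are also counted below as markers of other retinal neurons. The counts of this list are therefore not assigned to Müller glia alone. The mitochondrial aspartate aminotransferase got2b, which interconverts glutamate and aspartate, rose at every time (1.11 ± 0.16 SE at 8 hpl, 1.46 ± 0.16 SE at 24 hpl). The amino acid transporter gene slc38a2 rose as well (1.19 ± 0.26 SE at 8 hpl), and slc38a4, of the same family, fell (-2.09 ± 0.24 SE at 8 hpl, -1.85 ± 0.24 SE at 24 hpl). The neutral amino acid transporter gene slc1a4, counted among the 6 rises, went from a mean of 2.29 at 0 hpl to 3.07 at 8 hpl (0.78 ± 0.27 SE). Its highest mean, 3.70 at 16 hpl, also lies below the array medians. It is therefore not shown above background at any time, and the size of its rise is not measured. The list median was 1.06, -0.30, -0.70 and -0.61 at 8, 16, 24 and 36 hpl.

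In the retinoid cycle and binding list 7 of 43 were named, of which 4 rose and 1 fell at 8 hpl and 2 rose and 3 fell at 36 hpl. The falls at 36 hpl included that of rpe65a, taken above as a pigment epithelium marker. As with the list before, these counts are not assigned to Müller glia alone. The retinoid desaturase gene cyp27c1 rose at all 4 times, with means of 2.86 at 0 hpl, 5.17 at 8 hpl and 8.76 at 24 hpl. Its 0 hpl mean lies below the array medians and is not shown above background, so no size of the rise is given. The retinol dehydrogenase gene rdh10b rose at 8 hpl (1.37 ± 0.23 SE) and 24 hpl (1.34 ± 0.23 SE) but not at 36 hpl (0.37 ± 0.23 SE, adjusted p = 0.195). At 36 hpl it was below 24 hpl (-0.97 ± 0.23 SE, adjusted p = 0.0209), and its 0 hpl mean of 4.27 lies below the array medians. The gene dhrs9, a dehydrogenase of the same superfamily, fell at 8 hpl (-0.94 ± 0.21 SE) and 24 hpl (-1.37 ± 0.21 SE). Its 24 hpl mean of 4.29 lies below the array medians, so the size of that fall is not measured. The retinoic acid-binding protein gene crabp2a rose at 36 hpl (1.33 ± 0.34 SE) and was called at no other time.

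Of 57 genes of water, ion and lactate handling 8 were named, of which 2 fell and 4 rose at 8 hpl, 4 and 4 at 16 hpl, 2 and 3 at 24 hpl, and 4 and 3 at 36 hpl. The lactate transporter genes slc16a8 (1.64 ± 0.17 SE at 8 hpl, 2.25 ± 0.17 SE at 24 hpl) and slc16a3b (0.88 ± 0.16 SE, 1.26 ± 0.16 SE) rose at all 4 times. The carbonic anhydrase cahz, also a red blood cell gene, fell at all of them (-0.62 ± 0.20 SE at 8 hpl, -1.34 ± 0.20 SE at 24 hpl). The sodium pump alpha subunit gene atp1a1b fell from 16 hpl on (-0.98 ± 0.13 SE at 24 hpl). The pump's beta subunit genes on the list did not move together. The gene atp1b1a rose at all 4 times (0.80 ± 0.18 SE at 8 hpl, 1.08 ± 0.18 SE at 24 hpl). A rise of atp1b2a was called at 8 hpl (1.03 ± 0.26 SE) and 16 hpl (0.80 ± 0.26 SE) but not at 24 or 36 hpl. For atp1b1b falls were called at 16 hpl (-0.725 ± 0.19 SE) and 36 hpl (-1.03 ± 0.19 SE). Of 43 connexin and junction genes 3 were named, and none fell: the connexin gene gjc4b rose (0.50 ± 0.17 SE at 8 hpl, 1.30 ± 0.17 SE at 24 hpl), opposite to gja1b. The S100 gene s100u was the only one named of 44 calcium binders, and it rose (1.13 ± 0.24 SE at 8 hpl, 2.79 ± 0.24 SE at 24 hpl), opposite to s100b. With naming tied to a 2-fold change, these opposite directions are values of single genes.

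Of 73 other Müller glia genes 19 were named. At 8 hpl 9 fell and 4 rose, at 16 hpl 12 and 3, and at 24 and 36 hpl 13 and 3. Their median log2 change was -0.51, -0.83, -1.14 and -1.13. Falls at 24 hpl included col9a2 (-3.47 ± 0.29 SE), cyp26a1, which breaks down retinoic acid (-2.98 ± 0.22 SE), and the membrane glycoprotein gene gpm6ab (-2.11 ± 0.14 SE). The 3 rises at 24 hpl were the secreted factor metrnla (1.57 ± 0.18 SE), the progenitor factor sox2 (0.62 ± 0.14 SE) and the protease inhibitor timp2a (0.96 ± 0.18 SE). The means of timp2a, 3.56 at 0 hpl and 4.52 at 24 hpl, lie below the array medians of those times, so the size of its rise is not measured. At 36 hpl its mean was 6.18.

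Markers of other cells were measured on the same arrays. Of 18 rod genes 6 were named. At 8 hpl their mean log2 level lay between 7.49 and 8.42 over the arrays, against 6.75 to 7.89 at 0 hpl, with 1 rise (gngt1) and no fall. At 36 hpl it lay between 6.27 and 6.93, with 5 falls, gngt1 among them (-1.74 ± 0.42 SE), and 1 rise (nr2e3, 1.015 ± 0.25 SE). For 8 of 25 cone genes it was 5.12 to 5.60 at 8 hpl and 4.47 to 5.12 at 36 hpl, against 5.90 to 6.34 at 0 hpl, with 3 and 5 falls. For 7 of 42 genes of other retinal neurons it was 6.27 to 7.05 at 8 hpl and 5.06 to 5.67 at 36 hpl, against 6.29 to 6.52 at 0 hpl. Of the microglia and macrophage list only ctsba was named of 34, and it rose from 16 hpl on (1.48 at 36 hpl). Of 18 red blood cell genes 2 were named (hbae3 and cahz), and of 18 lens genes 2 (cryaba and cryba4), and all 4 fell at every time. After the lesion the means of hbae3, cryaba and cryba4 lay below the array medians, so the size of their falls is not measured. Of 25 endothelial and mural genes 3 were named, of which none was called at 8 hpl and 2 fell and 1 rose at 36 hpl. The part of these cells in the changes of the 7 genes was not tested.

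How far the smaller falls went depended on the scale of the arrays. With scaling on the hybridisation controls the falls of gja1b (-0.22, adjusted p = 0.405), glula (-0.35, adjusted p = 0.218), aqp1a.1 (-0.39, adjusted p = 0.14) and efhd1 (-0.44, adjusted p = 0.135) at 16 hpl did not pass, nor did that of glula at 24 hpl (-0.46, adjusted p = 0.116). Under that scaling 702 of 15502 probe sets fell at 16 hpl and 787 at 24 hpl, against 3399 and 2200 as deposited. At 36 hpl all 6 falls passed under that scaling, the smallest being aqp1a.1 (-0.53, adjusted p = 0.0358). There 812 of all probe sets fell, against 4126 as deposited. The rise of glulb grew to 2.25 at 16 hpl and 1.36 at 36 hpl. No gene changed direction against 0 hpl under any alternative.

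**Figure D5:**
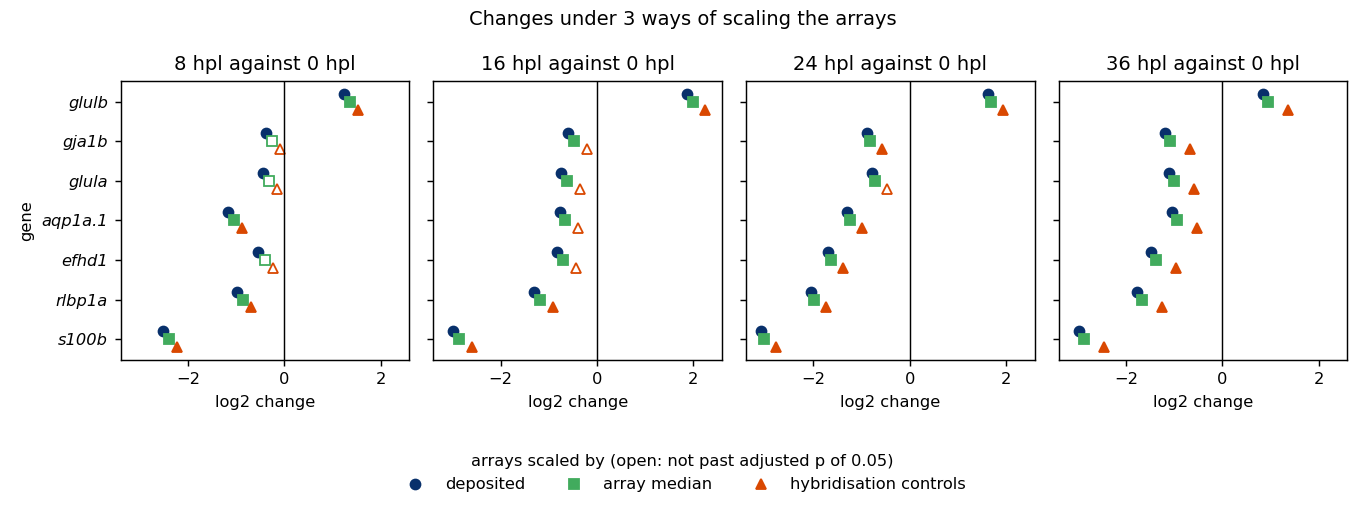
Log2 change against 0 hpl (horizontal axis) of the 7 genes at each time, with the arrays as deposited, centred on their medians, or scaled on the hybridisation controls. Filled symbols passed an adjusted p of 0.05 and open ones did not. At 8 hpl gja1b, glula and efhd1 are open under both rescalings, and at 36 hpl all symbols are filled.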

How the data were processed

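Total RNA (20 ng) was amplified linearly and labelled with biotin, per the labels' protocols, and hybridised to Affymetrix arrays. The deposited log2 values were made by the authors with RMA, per the submitters' processing notes (version not given). Another table deposited by the authors holds signed fold changes, on a linear scale with falls negative (treated as a score), and p-values, per the file headers. The column of the smallest p-value is headed FDRCI, and the test is not described further. No column was left unmapped. After 115 control probe sets were left out, the 15502 others were fitted over 15 arrays in limma 3.58.1 (R 4.3.3), each time having its own coefficient and no dim probe set being filtered out, and moderated with eBayes. Adjusted p-values are Benjamini-Hochberg over all probe sets within a contrast, called under 0.05. The fit was tested on simulated data. Exact permutation tests used scipy 1.17.1. Gene names were updated through the RefSeq table of assembly GRCz12tu, used for names only: of 2511 probe sets with 1 symbol, 983 were renamed through a synonym and 521 matched nothing and kept the deposited name. A gene is represented by its brightest probe set. Named were the 7 genes, the 3 nearest courses of each (clone names left out) and up to 4 genes of each functional list by smallest adjusted p. The genes atp1b1a, atp1b1b, atp1b2a, sox2 and metrnla and the named markers of other cells were singled out after their values were seen. The genes and lists were chosen with earlier results of these data known. Precision is limited by 3 arrays per time. Alternative fits are given in the closing section.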

Additional observations from a re-analysis of the deposited data

Results flagged for a closer look

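The change of efhd1 differed between neighbouring times after the lesion: its log2 value at 24 hpl stood at -0.88 relative to 16 hpl (limma, adjusted p = 0.0359, all 3 arrays of 24 hpl below all 3 of 16 hpl). It was taken up because this difference was itself tested and passed, where no such step of the other 6 genes passed. The steps of rlbp1a (-0.74 ± 0.17 SE, limma adjusted p = 0.0814) and aqp1a.1 (-0.52 ± 0.14 SE, limma adjusted p = 0.163) were also falls with the arrays apart. Such falls with the arrays apart were seen for 8.96% of all probe sets. Whether the step of efhd1 differed from those of other genes was not tested. Under 10 of 24 alternative fits the efhd1 step did not pass. Groups of 3 arrays are too small for a check of single outlying arrays.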

How the results depend on the processing

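At 8 hpl the count of falling genes, 6 as reported, was 3 with each array centred on its median, with hybridisation-control scaling, in the fit on the compared groups alone, with replicate number as a block, without the 3 arrays of lowest weight (0 hpl replicate 3, 8 hpl replicate 3 and 36 hpl replicate 2, chosen after seeing the data), and at an adjusted p under 0.01; it was 2 with a 2-fold minimum. Leaving out each array in turn gave 3 to 6. Over all 15502 probe sets the falls at 8 hpl went from 2246 to 1239 with median centring and 423 with hybridisation-control scaling. They were 1091 with the compared groups alone, 2082 with the replicate block and 1478 without the arrays of lowest weight. Counts over all probe sets at an adjusted p under 0.01 or with the 2-fold minimum were not made at any time. At 16 hpl the 6 falls became 2 with hybridisation-control scaling and 2 with the 2-fold minimum. With that scaling the falls over all 15502 probe sets at 16 hpl also went down, from 3399 to 702. The 1 rise at 36 hpl became 0 without the arrays of lowest weight and with the 2-fold minimum. Without those arrays the rises over all probe sets at 36 hpl went from 3091 to 2784. The 1 fall between 16 and 24 hpl became 0 with hybridisation-control scaling, the compared groups alone, the replicate block, an adjusted p under 0.01 and the 2-fold minimum, 2 with trend and robust settings (rlbp1a added), and 3 with array weights (rlbp1a and aqp1a.1 added); leaving out 1 array gave 0 to 1. Over all probe sets the falls between 16 and 24 hpl went from 42 to 14 with hybridisation-control scaling. They were 73 with the compared groups alone, 24 with the replicate block, 50 with trend and robust settings and 301 with array weights. Between 24 and 36 hpl 1 fall, that of glulb, appeared with repeated quantile normalisation, trend and robust settings, and array weights, and leaving out 1 array gave 0 to 1. The falls over all probe sets there were 315 as reported, and 396, 302 and 542 in the same order of fits. Between 8 and 16 hpl 1 fall (glula) appeared without the arrays of lowest weight, where the falls over all probe sets went from 483 to 621. Leaving out 1 array in turn kept the falls at 16, 24 and 36 hpl at 6 and the rise at 1. With 1 array left out, the glulb minus glula difference ranged over 1.58 to 1.84 at 8 hpl, 2.52 to 2.68 at 16 hpl, 2.23 to 2.68 at 24 hpl and 1.70 to 2.26 at 36 hpl. With the replicate block it stayed at 1.68, 2.61, 2.4 and 1.94, as it must when every group holds every replicate number. The labels do not say that a number marks a shared source. Deviations of same-numbered arrays correlated between -0.34 and 0.402, and those of differently numbered arrays between -0.336 and 0.404. The causes were not tested. The mean of several probe sets could not be run, as each gene had 1 named probe set. No detection calls exist, so s100b after the lesion has no shown level above background.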
